A study of Mus musculus with 6 samples.

Results

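RNA of 41 Wnt pathway genes was examined in isolated mouse kidney glomeruli, the capillary tufts where blood is filtered. The genes were picked by symbol from the 24035 named genes of the deposited expression matrix: 11 Wnt ligands, 7 frizzled receptors, 4 co-receptors, 2 cytoplasmic transducers, 4 TCF/LEF transcription factors, 5 secreted antagonists, 6 feedback inhibitors, and an R-spondin with its receptor. The knockout group (3 libraries, genotype Podocin-Cre Klf4 fl/fl) carried 2 floxed copies of Klf4 and a Cre recombinase that acts in podocytes, the epithelium that covers these capillaries on the filtrate side. The control group (3 libraries, genotype Klf4 fl/fl) carried the same floxed alleles without Cre. All mice were of the FVB/N strain, and ages and sexes were not used here. Mice with Cre but no floxed Klf4 were not among the groups, and what Cre itself does cannot be told apart from what the loss of Klf4 does. Glomeruli were loaded with iron oxide by perfusion, freed by enzyme digestion and held on a magnet. Their total RNA was sequenced, so each value is a sum over every cell type in the preparation.

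Wnt proteins are lipid-modified secreted signals that bind frizzled receptors on nearby cells. With the co-receptors Lrp5 or Lrp6, binding stops the destruction of β-catenin, which then works with TCF/LEF factors to switch on target genes, among them inhibitors such as Axin2 that dampen the signal. Other ligands and receptors act without β-catenin on cell polarity and the cytoskeleton. In the kidney the pathway directs nephron formation in the embryo, and β-catenin activity in podocytes is known for its part in glomerular injury.

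Klf4, the zinc-finger transcription factor targeted in the knockout, stood at 29.4, 40.3 and 41.4 RPKM (reads scaled for gene length and for library depth) in knockout replicates 1 to 3, against 21.5, 44.3 and 49.8 RPKM in control replicates 1 to 3. The groups overlapped, with means of 37.04 ± 6.62 RPKM in knockouts and 38.5 ± 15.01 RPKM in controls (SD, n = 3 each). The log2 change, knockout minus control on the log2(RPKM + 0.5) scale used throughout, was 0.015 (SE 0.31, 95% interval −0.71 to 0.74, limma adjusted p = 0.979). Its sign turned without control replicate 1 (−0.35), knockout replicate 2 (−0.054) or knockout replicate 3 (−0.071). Other glomerular cells can keep the gene and the deleted exons are not stated in the sources used here, so this whole-gene level does not check the labels.

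The libraries held 38936993 to 58272424 counted reads, and correlations of log2 values were 0.969 to 0.981 within groups and 0.891 to 0.949 between groups. The labelled tissue was checked with marker lists. Calls here and throughout are from limma across all genes, with an adjusted p under 0.05. All 10 podocyte markers passed the filter on low values (0.5 RPKM on average), and their summed level was 854 to 2181 RPKM in knockouts against 3096 to 6042 RPKM in controls, with 7 of 10 lower. Markers of parietal epithelium (the lining of the glomerular capsule) summed to 380.1 to 612 RPKM in knockouts against 280.3 to 284 RPKM in controls, with 6 of 8 higher. Leukocyte markers summed to 391.9 to 900.2 RPKM in knockouts against 58.5 to 61.7 RPKM in controls, with 6 of 7 tested higher, and Cd3e and Cd79a were below the filter. Interstitial fibroblast markers summed to 81.9 to 124.5 RPKM in knockouts against 62.3 to 70.1 RPKM in controls, with 3 of 5 tested higher. Pdgfra of that list went the other way, below every control in all knockout libraries, and was not called. It averaged 18.8 ± 4.81 RPKM in knockouts and 29.5 ± 4.46 RPKM in controls (log2 change −0.66, limma adjusted p = 0.0835). Endothelial markers summed to 1024 to 1717 RPKM in knockouts against 1796 to 2636 RPKM in controls, with none of 8 called. Plvap of this list went the other way, without overlap. It averaged 70.7 ± 7.38 RPKM in knockouts and 54.3 ± 4.17 RPKM in controls (log2 change 0.38, limma adjusted p = 0.101). Mesangial sums overlapped, at 585 to 863 RPKM in knockouts and 613 to 880.3 RPKM in controls, with 2 of 7 tested higher and 1 lower. Tubule fragments were present too. Proximal tubule markers summed to 985 to 2028 RPKM in knockouts and 935 to 1884 RPKM in controls, with 1 of 8 higher and none lower. The 9 markers of later segments (loop, distal tubule and collecting duct) summed to 2395, 2697 and 1017 RPKM in knockout replicates 1 to 3. In control replicates 1 to 3 they summed to 874, 448 and 1241 RPKM, and none of the 9 was called. No listed marker with a row was at 0 in every library, although the mesangial list's Ren1 had 1 read in all 6 libraries together. Adgre1 of the leukocyte list had no row under that symbol. In bulk tissue, fewer cells of a type and less RNA per cell cannot be told apart, which touches every member below.

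Of the 41 members, 37 averaged 0.5 RPKM or more across the 6 libraries and were tested, and 8 were higher and 1 was lower in knockout glomeruli (limma, Benjamini-Hochberg adjusted p under 0.05 over all genes tested). The higher members were the ligands Wnt4, Wnt5a, Wnt7b, Wnt9b and Wnt10a and the receptors Fzd1, Fzd6 and Fzd7, and the lower member was the secreted antagonist Wif1. These were 24.3% of the members tested, where 13.5% of the 13912 genes tested were called. By direction, 21.6% of the members were higher, where 9.98% of all genes were, and 2.70% were lower, where 3.48% of all genes were. The groups did not overlap for 15 members (40.5%), 11 of them higher and 4 lower in knockouts, where 35.1% of all genes tested had groups that did not overlap. The median log2 change of the 37 members was 0.050, and that of all genes was 0.097. For 6 members (Wnt2b, Wnt4, Wnt5a, Wnt9b, Wnt10a and Lef1) the mean of one group was under the filter, so they were tested only because the other group was higher, and the counts of members are a description for this reason too. Wnt2, Wnt6, Dkk1 and Nkd2 were not tested.

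The scaling of the libraries changed these counts. Quantile normalization moved the median log2 change of all genes by −0.15 and median-ratio scaling by −0.12. So scaled, 2 members were higher and 2 lower under quantile normalization, and 5 higher and 1 lower under median-ratio scaling. Among all genes the higher ones were 74.2% of the calls, against 51.5% under quantile normalization and 58.6% under median-ratio scaling. No called member changed sign under either scaling.

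**Figure D1:**
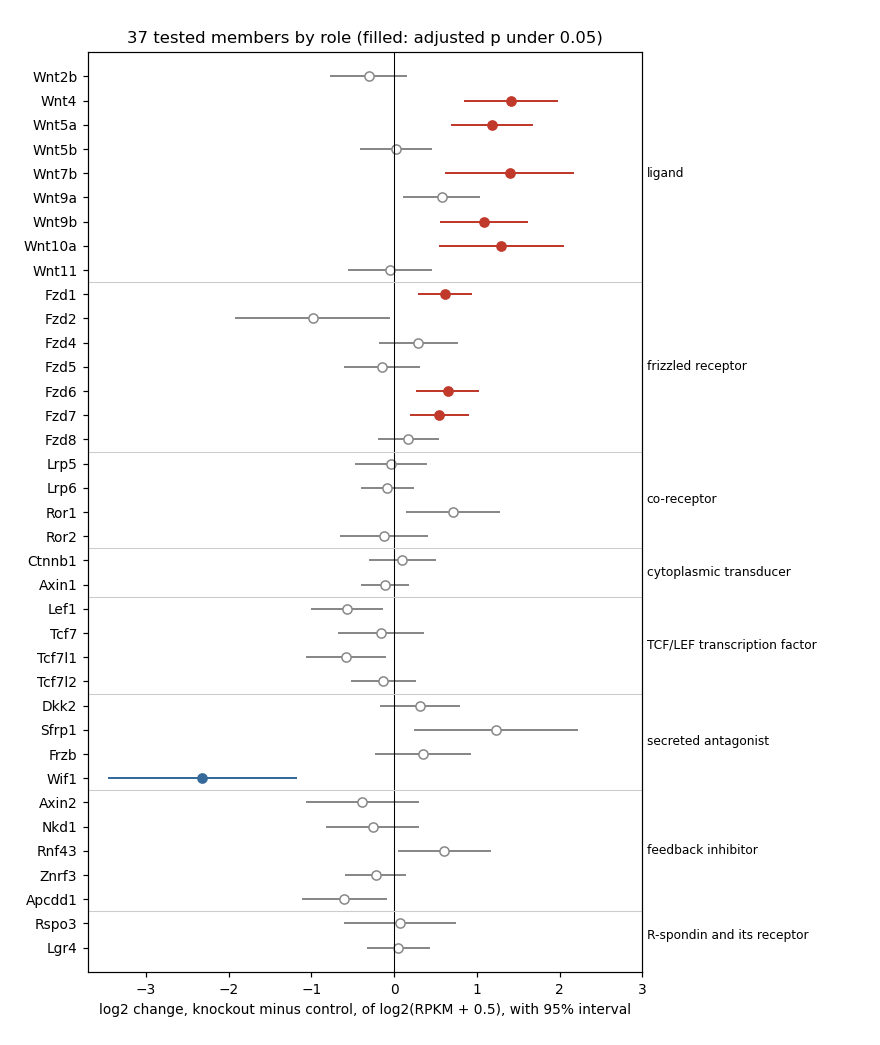
Log2 change (knockout minus control, log2(RPKM + 0.5) scale) of the 37 tested members by role, with 95% intervals as lines and filled points for adjusted p under 0.05. The filled points on the right are 5 ligands and 3 frizzled receptors, and the filled point on the left is Wif1 at −2.32.

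**Figure D2:**
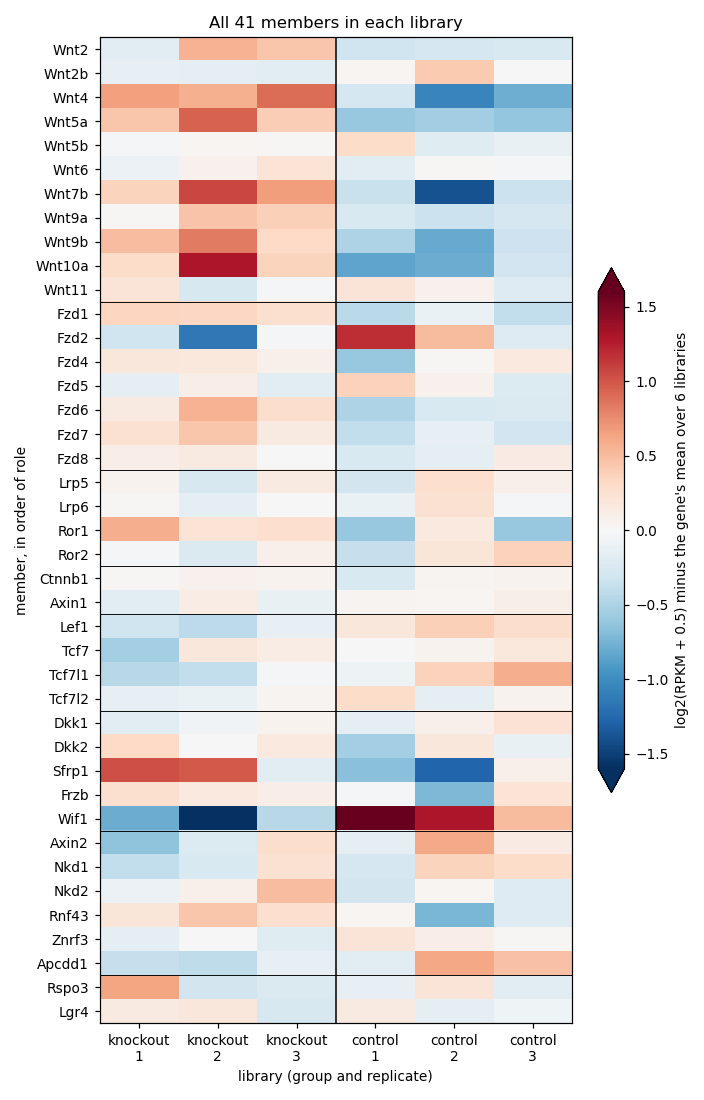
Level of all 41 members in each of the 6 libraries, as log2(RPKM + 0.5) minus the gene's own mean, with the 3 knockout libraries on the left and the 3 control libraries on the right. Red is above and blue below the gene's mean. Wnt4, Wnt5a, Wnt7b, Wnt9b and Wnt10a are red in all 3 knockout libraries, and Wif1 is blue there.

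Among the ligands, 5 of 9 tested were higher in knockout glomeruli and none was lower, where 9.98% of all genes were higher and 3.48% lower. The median log2 change of the 9 was 1.09. Wnt4, Wnt5a, Wnt9b and Wnt10a averaged under 0.5 RPKM in controls and were tested only because knockouts were higher. The count and the median are a description for this reason. The 11 ligands together summed to 12.7, 18.05 and 14.6 RPKM in knockout replicates 1 to 3, against 8.15, 5.67 and 7.01 RPKM in control replicates 1 to 3. The lowest knockout sum was above the highest control sum. These sums were low beside those of the 7 frizzleds given further on.

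Wnt4, which is needed for nephron formation in the mouse embryo (chromosome 4, 137277489 to 137299726, GRCm38, as for all gene positions here), stood at 1.96, 1.81 and 2.39 RPKM in knockout replicates 1 to 3, against 0.785, 0.249 and 0.410 RPKM in control replicates 1 to 3. Every knockout library was above every control library. The means were 2.05 ± 0.302 RPKM in knockouts and 0.481 ± 0.275 RPKM in controls, a 4.27-fold difference (log2 change 1.41, SE 0.24, limma adjusted p = 0.0119). Wnt5a, a ligand known mainly for signalling without β-catenin (chromosome 14, 28504750 to 28527448), stood at 1.49, 2.33 and 1.42 RPKM in knockouts, against 0.461, 0.5005 and 0.452 RPKM in controls. Its control libraries lay within a narrow range, and knockout replicate 2 was the highest of all. The means were 1.75 ± 0.507 RPKM in knockouts and 0.471 ± 0.0256 RPKM in controls, a 3.70-fold difference (log2 change 1.19, SE 0.21, adjusted p = 0.0126). Wnt4 and Wnt5a were called without any one library and under every other setting in which they were tested, with log2 changes of 1.04 to 2.29 for Wnt4 and 0.81 to 1.82 for Wnt5a. A gene on the other strand overlaps exons of Wnt5a and of Wnt7b, and its reads cannot be told apart from theirs.

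Wnt7b, which in the mouse embryo is made by the collecting duct system and is needed to form the medulla (chromosome 15, 85535437 to 85582473), stood at 3.18, 5.56 and 4.07 RPKM in knockouts, against 1.75, 0.599 and 1.76 RPKM in controls. Its means were 4.27 ± 1.21 RPKM in knockouts and 1.37 ± 0.668 RPKM in controls, the highest knockout mean among the 11 ligands (3.12-fold, log2 change 1.40, SE 0.33, adjusted p = 0.0333). The call was lost without knockout replicate 1 (adjusted p = 0.0517), 2 (0.136) or 3 (0.0558) and without control replicate 1 (0.0524), and also under quantile normalization (0.0589) and with no filter (0.0656). Wnt9b, a ureteric bud signal that starts nephron formation in the mouse (chromosome 11, 103727364 to 103749821), stood at 1.15, 1.59 and 0.965 RPKM in knockouts, against 0.332, 0.173 and 0.432 RPKM in controls. The groups did not overlap, with means of 1.23 ± 0.319 RPKM in knockouts and 0.312 ± 0.131 RPKM in controls (3.95-fold, log2 change 1.09, SE 0.22, adjusted p = 0.0214). Its call was lost without knockout replicate 1 (0.0512) or 2 (0.0918) and without control replicate 1 (0.0542) or 2 (0.0607). Under quantile normalization its log2 change was 0.68 with an adjusted p of 0.0819. In both genes the 3 control libraries ran in the order of the distal tubule and collecting duct marker sum, with control replicate 3 highest and control replicate 2 lowest. Control replicates 1 and 3 were near a tie in Wnt7b, at 1.75 and 1.76 RPKM. In knockouts that sum was highest in replicate 2 and lowest in replicate 3, at 1017 RPKM. Wnt9b ran in that knockout order too, and was lowest in replicate 3 at 0.965 RPKM. Wnt7b did not, at 4.07 RPKM in knockout replicate 3 and lowest in knockout replicate 1 (3.18 RPKM). The part of these markers in the result was not tested.

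Wnt10a, a ligand known for its part in tooth and skin appendage development (chromosome 1, 74791516 to 74804179), was at 0.597, 1.70 and 0.648 RPKM in knockouts, which is 53, 136 and 74 reads. Control replicates 1 to 3 held 0, 2 and 17 reads, or 0, 0.0194 and 0.223 RPKM. The gene was thus close to undetected in controls and low in knockouts (0.982 ± 0.624 RPKM in knockouts and 0.0807 ± 0.123 RPKM in controls, log2 change 1.29, SE 0.32, adjusted p = 0.0388). The ratio of the means, 12.2-fold, rests on 19 control reads in all. Leaving out knockout replicate 1 (0.0511) or control replicate 1 (0.100), 2 (0.0985) or 3 (0.0554) lost the call. So did a pseudocount of 1 (0.0504), no filter (0.0531) and quantile normalization (0.110), and over all settings its log2 change ran from 0.84 to 4.74. Without knockout replicate 2 the gene fell below the filter. The 6 libraries ran in the same order in Wnt10a as in the sum of the parietal epithelial markers, whose part in the result was not tested. In controls that sum was nearly level, at 280.3, 281.3 and 284.2 RPKM in replicates 1 to 3, so its order there is near a tie. Cd24a, which was not called, made up most of that sum in controls (234.1, 242.8 and 221.1 RPKM).

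The other ligands did not pass the test. Wnt9a stood at 0.759, 1.21 and 1.12 RPKM in knockouts, against 0.549, 0.482 and 0.534 RPKM in controls, with no overlap and an adjusted p of 0.0929 (log2 change 0.57). Wnt2b, at 0.463 ± 0.0151 RPKM in knockouts and 0.704 ± 0.203 RPKM in controls, was the one ligand whose libraries were all lower in knockouts (log2 change −0.31, adjusted p = 0.332). Wnt5b and Wnt11 (Wnt11 is a signal of the branching ureteric tip in mouse) overlapped between the groups, with log2 changes of 0.019 and −0.048. Wnt2 was below the filter, with 16, 52 and 65 reads in knockouts against 9, 14 and 11 reads in controls, and Wnt6 had 6, 11 and 24 reads in knockouts against 3, 12 and 7 reads in controls. With no filter, Wnt2 had a log2 change of 0.55 (adjusted p = 0.127) and Wnt6 of 0.12 (adjusted p = 0.447).

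**Figure D3:**
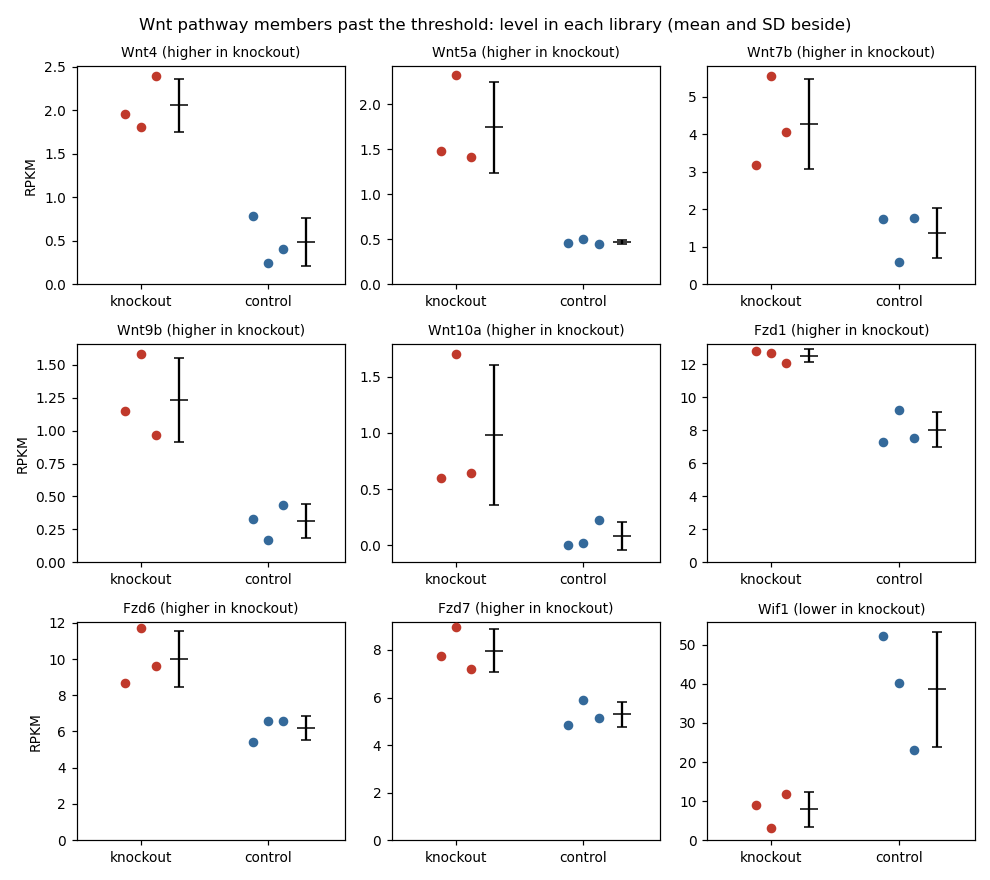
RPKM of the 9 members past the threshold in each library (points), with the group mean and SD beside them, knockout on the left and control on the right of each panel. In all 9 panels the 3 knockout points and the 3 control points do not overlap, and Wif1 is the panel in which controls are higher.

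The DNA just before the start of the called genes is shown so that their promoters can be read beside the values. RefSeq promoter windows (build GRCm38.p6, 250 bases before the annotated start) were found for 28 members, and 5 of the 9 called members had one. Each is printed 5′ to 3′ on the gene's own strand, and for Wnt4 and Wif1 the window stops before the earlier GENCODE start, at 104 and 206 bases. Capitals mark the core TCF/LEF motif (CTTTGA or CTTTGT, either strand) and the CACCC-box motif that KLF proteins bind (CCACCC, either strand).
Wnt4 (chr4:137277385-137277488, plus strand): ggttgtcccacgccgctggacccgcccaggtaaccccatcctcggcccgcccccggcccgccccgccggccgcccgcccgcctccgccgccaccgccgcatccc
Wnt9b (chr11:103749822-103750071, minus strand): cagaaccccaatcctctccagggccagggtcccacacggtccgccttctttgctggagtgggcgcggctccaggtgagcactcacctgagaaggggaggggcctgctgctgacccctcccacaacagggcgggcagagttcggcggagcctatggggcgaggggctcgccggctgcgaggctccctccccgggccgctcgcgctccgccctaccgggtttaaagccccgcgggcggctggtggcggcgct
Fzd1 (chr5:4758217-4758466, minus strand): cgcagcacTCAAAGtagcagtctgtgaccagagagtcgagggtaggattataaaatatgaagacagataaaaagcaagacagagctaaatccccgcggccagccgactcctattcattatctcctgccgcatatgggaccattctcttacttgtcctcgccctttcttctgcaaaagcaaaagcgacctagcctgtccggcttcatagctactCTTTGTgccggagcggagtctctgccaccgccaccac
Fzd7 (chr1:59481897-59482146, plus strand): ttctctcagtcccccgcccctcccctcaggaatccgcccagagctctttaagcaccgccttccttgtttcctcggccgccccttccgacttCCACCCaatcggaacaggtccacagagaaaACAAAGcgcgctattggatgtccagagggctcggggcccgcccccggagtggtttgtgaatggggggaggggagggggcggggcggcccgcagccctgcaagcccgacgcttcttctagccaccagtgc
Wif1 (chr10:121033754-121033959, plus strand): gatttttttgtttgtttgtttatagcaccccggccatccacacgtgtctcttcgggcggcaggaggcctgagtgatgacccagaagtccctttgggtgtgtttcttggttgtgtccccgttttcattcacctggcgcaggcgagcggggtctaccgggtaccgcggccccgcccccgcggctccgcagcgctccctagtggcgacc
The Fzd1 window held the TCF/LEF core starting 242 and 37 bases before the start. In Fzd7 that core started at 129 bases and a CACCC box at 159 bases before the start. The Wnt4, Wnt9b and Wif1 windows held neither set of letters. Some members had more than one start, and 12 of their 38 windows (31.6%) held the TCF/LEF core, where 27.6% of all 32851 promoter windows did. The CACCC box was in 19 of 38 member windows (50%), where 28.1% of all windows held it. Some windows of a gene overlapped, as in Lef1, so the same match could count more than once. Of the 5 called members with a window, only Fzd7 held the CACCC box. A match says only that these letters are present. The reference is not of the FVB/N strain.

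The frizzled receptors were 3 of 7 higher in knockout glomeruli and none lower, where 9.98% of all genes were higher and 3.48% lower. The called frizzleds had smaller folds than the called ligands, and the median log2 change of the 7 was 0.29. Fzd1 and Fzd7 belong to 1 subfamily of frizzleds with Fzd2, and Fzd6 is known for hair and tissue polarity in the mouse. Fzd1 (chromosome 5, 4753839 to 4758035) stood at 12.8, 12.7 and 12.1 RPKM in knockouts, against 7.31, 9.25 and 7.53 RPKM in controls. Its knockout libraries were close together and all above the controls, with means of 12.5 ± 0.392 RPKM in knockouts and 8.03 ± 1.06 RPKM in controls (1.56-fold, log2 change 0.62, SE 0.13, adjusted p = 0.0261). Fzd6 (chromosome 15, 39006034 to 39038188) stood at 8.70, 11.7 and 9.62 RPKM in knockouts, against 5.41, 6.57 and 6.60 RPKM in controls, and its exons too overlap a gene on the other strand. That is a 1.62-fold difference of the means (log2 change 0.65, SE 0.16, adjusted p = 0.0379), again with no overlap. Fzd6 too ran in the library order of the parietal marker sum, which was nearly level among controls, and the part of those markers was not tested. Fzd7 (chromosome 1, 59482424 to 59486955) stood at 7.74, 8.96 and 7.20 RPKM in knockouts, against 4.83, 5.89 and 5.14 RPKM in controls (1.51-fold, log2 change 0.55, SE 0.15, adjusted p = 0.0486). Its adjusted p lies just inside the threshold.

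All 3 calls were close to the threshold. Under quantile normalization the adjusted p was 0.0659 for Fzd1, 0.0912 for Fzd6 and 0.161 for Fzd7, and under median-ratio scaling it was 0.0556, 0.0632 and 0.0929 in the same order. Fzd1 lost its call without knockout replicate 1 (0.0820) or 2 (0.110) and without control replicate 1 (0.0686) or 3 (0.0778). Fzd6 and Fzd7 each lost it without any one of the 6 libraries, with adjusted p-values from 0.0562 to 0.155 for Fzd6 and from 0.0532 to 0.200 for Fzd7. With no filter the values were 0.0584 for Fzd6 and 0.0714 for Fzd7, and a filter at 2 RPKM gave 0.0531 for Fzd7. The 3 knockout libraries stayed above the 3 control libraries in each of these genes as deposited.

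Fzd2 was the frizzled with the lowest log2 change. It stood at 8.33, 4.45 and 10.3 RPKM in knockouts, against 24.3, 15.1 and 9.004 RPKM in controls, so knockout replicate 3 was above control replicate 3 (log2 change −0.99, SE 0.40, adjusted p = 0.144). Fzd4, a receptor for the non-Wnt ligand norrin as well, was the most abundant frizzled per length, at 27.9 ± 1.02 RPKM in knockouts and 23.3 ± 6.22 RPKM in controls (log2 change 0.29, adjusted p = 0.373). Fzd5 and Fzd8 had log2 changes of −0.15 and 0.17 with overlapping groups. The 7 frizzleds together summed to 75.1, 75.7 and 74.3 RPKM in knockouts, against 67.2, 70.7 and 65.2 RPKM in controls.

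None of the 4 co-receptors passed the test. Lrp5 and Lrp6, which pair with frizzleds in β-catenin signalling, averaged 34.3 ± 4.98 and 25.2 ± 1.68 RPKM in knockouts, against 35.3 ± 6.91 and 26.8 ± 3.52 RPKM in controls. Their log2 changes were −0.034 (95% interval −0.46 to 0.39) and −0.084 (−0.39 to 0.22), and the sign of both turned when a library was left out. Ror1, a receptor tyrosine kinase that binds Wnt5a, stood at 7.24, 5.51 and 5.70 RPKM in knockouts, against 2.90, 5.24 and 2.88 RPKM in controls. The groups did not overlap, control replicate 2 was close to the knockouts, and the log2 change was 0.71 (SE 0.24, adjusted p = 0.0935). Without control replicate 2 it was 0.96 with an adjusted p of 0.0290. Leaving out any other library gave no call, with an adjusted p of up to 0.2455. Ror2, its relative, had a log2 change of −0.12 with overlapping groups.

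The β-catenin gene Ctnnb1 was the most abundant member per length. It averaged 279 ± 5.57 RPKM in knockouts and 262 ± 29.6 RPKM in controls, with a log2 change of 0.097 (95% interval −0.30 to 0.49, adjusted p = 0.736). Axin1, the scaffold of the complex that destroys β-catenin, averaged 18.2 ± 1.99 RPKM in knockouts and 19.7 ± 0.409 RPKM in controls (log2 change −0.11, adjusted p = 0.567). RNA levels give no measure of β-catenin protein.

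All 4 TCF/LEF genes had a negative log2 change, with a median of −0.37, and none passed the test. Lef1, the factor known as a Wnt target in its own right, stood at 0.378, 0.319 and 0.498 RPKM in knockouts, against 0.741, 0.924 and 0.829 RPKM in controls. Every knockout library was below every control library, at 63, 48 and 107 reads in knockouts and 111, 179 and 119 reads in controls (log2 change −0.57, SE 0.18, adjusted p = 0.0815). Its adjusted p was 0.0427 with no filter, 0.0176 under quantile normalization, 0.0382 without the variance trend and 0.0488 with limma's voom on recovered reads. Under the other settings it was not called, and leaving out any 1 library gave adjusted p-values from 0.0852 to 0.270. The 6 libraries ran in the same order in Lef1 as in the sum of the endothelial markers, and the part of those markers in the result was not tested. The podocyte marker sum differed from that order only among controls, and its part was not tested. Tcf7l1, mostly a repressor of targets, averaged 13.2 ± 2.27 RPKM in knockouts and 20.1 ± 4.62 RPKM in controls (log2 change −0.58, adjusted p = 0.102). Tcf7 and Tcf7l2 differed by less, with log2 changes of −0.16 and −0.13.

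Among the secreted antagonists, Wif1 was lower in knockout glomeruli and the other 3 tested did not pass. Wif1 (chromosome 10, 121033960 to 121100650) binds Wnt ligands outside the cell and keeps them from their receptors. It stood at 9.06, 3.01 and 11.7 RPKM in knockouts, against 52.4, 40.2 and 23.1 RPKM in controls. The highest knockout library was below the lowest control library, with means of 7.92 ± 4.46 RPKM in knockouts and 38.6 ± 14.7 RPKM in controls. The knockout mean was 4.87-fold lower (log2 change −2.32, SE 0.48, 95% interval −3.45 to −1.19, adjusted p = 0.0233), the largest absolute log2 change among the members tested. The call was lost without control replicate 1 (0.0702) or 2 (0.0629), and with no filter (0.0501). The 6 libraries ran in the same order in Wif1 as in the sum of the 10 podocyte markers, which was 1714, 854 and 2181 RPKM in knockouts and 6042, 5200 and 3096 RPKM in controls. The part of podocyte RNA in the result was not tested.

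Sfrp1, a decoy that binds Wnt ligands, was high in 2 of 3 knockout libraries and did not pass the test. It stood at 35.3, 34.1 and 15.03 RPKM in knockouts, against 10.5, 6.79 and 18.1 RPKM in controls, so knockout replicate 3 lay below control replicate 3. The means were 28.2 ± 11.4 RPKM in knockouts and 11.8 ± 5.74 RPKM in controls (log2 change 1.23, SE 0.42, adjusted p = 0.0947). Without knockout replicate 3 the log2 change was 1.63 with an adjusted p of 0.0303. Leaving out any other library gave no call, with an adjusted p of up to 0.304. The libraries high in Sfrp1 were those high in distal tubule and collecting duct markers: knockout replicates 1 and 2, then control replicate 3. The sum of those markers was 2395 and 2697 RPKM in knockout replicates 1 and 2 and 1241 RPKM in control replicate 3, and its part in the Sfrp1 difference was not tested.

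**Figure D4:**
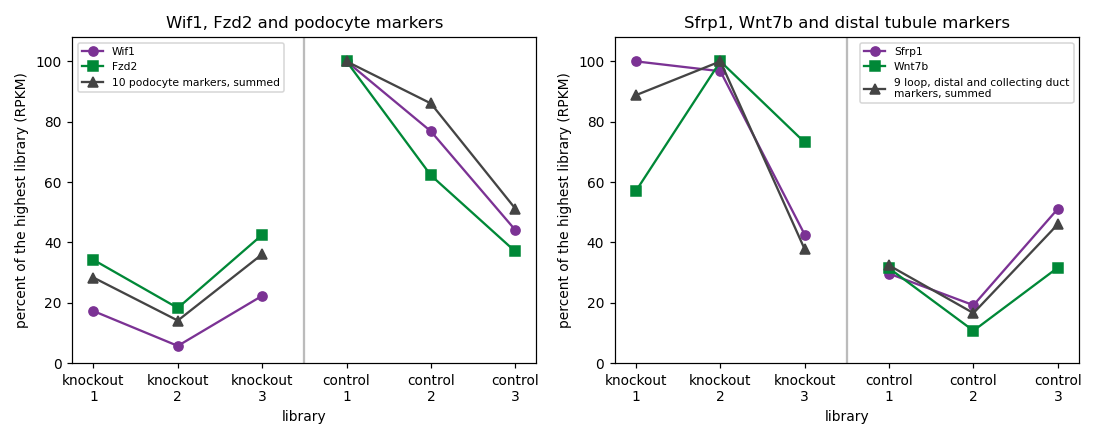
Level in each library as a percent of the highest library, from RPKM, with knockout libraries on the left of each panel. In the left panel Wif1 runs in the same library order as the 10 summed podocyte markers and Fzd2 nearly so. In the right panel Sfrp1 is high in knockout replicates 1 and 2 like the 9 summed distal tubule and collecting duct markers, while Wnt7b is high in all 3 knockout libraries.

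Dkk2 and Frzb did not pass. Dkk2, which binds Lrp5 and Lrp6, was the most abundant antagonist among the members per length, at 95.2, 75.8 and 84.8 RPKM in knockouts and 51.9, 86.5 and 70.0 RPKM in controls (log2 change 0.32, adjusted p = 0.335). Frzb, a frizzled-related decoy, averaged 5.23 ± 0.319 RPKM in knockouts and 4.16 ± 1.45 RPKM in controls (log2 change 0.35, adjusted p = 0.381). Dkk1 was below the filter, with 3, 7 and 16 reads in knockouts and 4, 16 and 18 reads in controls. With no filter its log2 change was −0.12 (adjusted p = 0.534).

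None of the 5 feedback inhibitors tested passed the test, and their median log2 change was −0.26. Axin2, the target most often used as a readout of β-catenin signalling, stood at 2.13, 3.03 and 4.49 RPKM in knockouts, against 3.18, 5.78 and 3.98 RPKM in controls. The groups overlapped, and the log2 change was −0.39 (SE 0.29, 95% interval −1.06 to 0.29, adjusted p = 0.411). Nkd1, which binds dishevelled, averaged 6.04 ± 1.56 RPKM in knockouts and 7.33 ± 1.72 RPKM in controls (log2 change −0.26, adjusted p = 0.495). Its relative Nkd2 was below the filter, at 59, 69 and 161 reads in knockouts and 38, 82 and 42 reads in controls (log2 change 0.32 with no filter, adjusted p = 0.307). Apcdd1, a membrane inhibitor of the pathway, stood at 10.5, 10.2 and 12.4 RPKM in knockouts and 12.04, 21.2 and 19.0 RPKM in controls (log2 change −0.60, adjusted p = 0.106). Without control replicate 1, its lowest control, the log2 change was −0.84 with an adjusted p of 0.0293. Leaving out any other library gave no call, with an adjusted p of up to 0.313.

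The ubiquitin ligases Rnf43 and Znrf3, which remove frizzleds from the cell surface, lay on opposite sides of 0. Rnf43 stood at 1.14, 1.46 and 1.24 RPKM in knockouts and 0.965, 0.366 and 0.751 RPKM in controls (log2 change 0.60, adjusted p = 0.133). Znrf3 stood at 1.97, 2.23 and 1.88 RPKM in knockouts and 2.65, 2.43 and 2.27 RPKM in controls (log2 change −0.22, adjusted p = 0.372). The groups did not overlap in either gene, and neither passed the test. Rspo3, a secreted protein that blocks these ligases, averaged 0.881 ± 0.532 RPKM in knockouts and 0.765 ± 0.192 RPKM in controls, with knockout replicate 1 highest at 1.49 RPKM (log2 change 0.072, adjusted p = 0.894). Lgr4, a receptor for R-spondins, averaged 23.8 ± 3.95 RPKM in knockouts and 22.9 ± 2.51 RPKM in controls (log2 change 0.050, adjusted p = 0.864).

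The rest of the pathway was read from 7 lists of 101 further genes, of which 100 were in the table and 77 were tested. In all, 10 were higher (13.0%) and 8 lower (10.4%) in knockouts, with a median log2 change of 0.052, and the shares of all genes given above were 9.98% higher and 3.48% lower. Those named here are the 3 with the smallest p in each list. The lists were chosen with earlier results of these data known, so the counts in these lists are a description. None of the 3 tested genes of the ligand and secretion list passed. Porcn, the enzyme that adds the lipid to Wnt proteins, averaged 4.69 ± 0.887 RPKM in knockouts and 7.14 ± 1.20 RPKM in controls, without overlap (log2 change −0.56, adjusted p = 0.0859). Wls, the carrier that takes Wnt proteins to the surface, averaged 125 ± 0.960 RPKM in knockouts and 118 ± 12.4 RPKM in controls, and Wnt16 had a log2 change of 1.04 (adjusted p = 0.149) with overlapping groups.

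Among other receptors and R-spondins, 2 of 6 tested were lower and none higher, where 3.48% of all genes were lower and 9.98% higher. Rspo1, an R-spondin, stood at 0.675, 0.375 and 1.13 RPKM in knockouts, against 2.40, 3.051 and 1.86 RPKM in controls (log2 change −1.29, SE 0.27, adjusted p = 0.0244). Its call was lost without knockout replicate 1 (0.0668) or 2 (0.0847) and without control replicate 1 (0.0659) or 2 (0.0703). Kremen1, a receptor for Dickkopf proteins, averaged 24.96 ± 5.64 RPKM in knockouts and 45.95 ± 8.28 RPKM in controls (log2 change −0.87, SE 0.20, adjusted p = 0.0316). It lost the call without knockout replicate 1 (0.0950) or 2 (0.128) and without control replicate 1 (0.0879) or 2 (0.0824), and with no filter (0.0539). The heparan sulfate carrier Gpc4 did not pass (log2 change 0.68, adjusted p = 0.125).

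Among other secreted antagonists, 2 of 6 tested were lower and none higher, where 3.48% of all genes were lower and 9.98% higher. Notum, which strips the lipid from Wnt proteins and is itself a Wnt target in several tissues, stood at 4.63, 3.10 and 3.99 RPKM in knockouts, against 14.6, 8.64 and 9.07 RPKM in controls. Its groups were well apart (log2 change −1.33, SE 0.23, adjusted p = 0.0129), and the call was lost without knockout replicate 2 (0.0565). Sfrp2, a relative of Sfrp1, averaged 219 ± 51.2 RPKM in knockouts and 578 ± 122 RPKM in controls (log2 change −1.41, adjusted p = 0.0166), a call lost once knockout replicate 2 was left out (0.0646). Sfrp2 was more abundant per length in controls than any member, and it differed in the direction opposite to the Sfrp1 values. Dkk3 did not pass (log2 change 0.52, adjusted p = 0.118).

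Of 18 other cytoplasmic components, 1 was lower and none higher, where 13.5% of all genes were called. Btrc, the subunit that brings β-catenin to its ubiquitin ligase, stood at 4.76, 4.86 and 4.83 RPKM in knockouts, against 7.62, 7.19 and 7.10 RPKM in controls (log2 change −0.55, SE 0.12, adjusted p = 0.0281). Both groups were tight, yet the call was lost without knockout replicate 1 (0.0839) or 2 (0.109) and without control replicate 1 (0.0702), 2 (0.0633) or 3 (0.0709). Tnks, a tankyrase that marks axin for destruction, and Dact2, which binds dishevelled, did not pass, with log2 changes of 0.56 and 0.65. None of 12 nuclear cofactors passed, and the corepressor genes Tle2 and Tle4 had log2 changes of −0.49 (adjusted p = 0.0670) and −0.51 (adjusted p = 0.124), while Tbl1x had 0.54 (adjusted p = 0.203).

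The planar cell polarity list, which holds genes of the β-catenin-independent branch, had 2 of 10 tested higher and 1 lower. Of all genes, 9.98% were higher and 3.48% lower. Celsr1, an atypical cadherin of that system, stood at 3.88, 5.09 and 2.84 RPKM in knockouts, against 1.26, 0.787 and 1.29 RPKM in controls (log2 change 1.44, SE 0.24, adjusted p = 0.0113). It was called without any one library. The formins Daam1 and Daam2, which link dishevelled to actin, were called in opposite directions. Daam1 averaged 8.91 ± 1.76 RPKM in knockouts and 5.10 ± 0.693 RPKM in controls (log2 change 0.74, adjusted p = 0.0372), a call lost when leaving out knockout replicate 2 (0.145) or 3 (0.0595), or control replicate 1 (0.0931), 2 (0.0537) or 3 (0.0871), with no filter (0.0617), and under quantile (0.0852) or median-ratio scaling (0.0571). Daam2 averaged 29.2 ± 8.99 RPKM in knockouts and 78.9 ± 14.4 RPKM in controls (log2 change −1.44, SE 0.23, adjusted p = 0.00996).

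**Figure D5:**
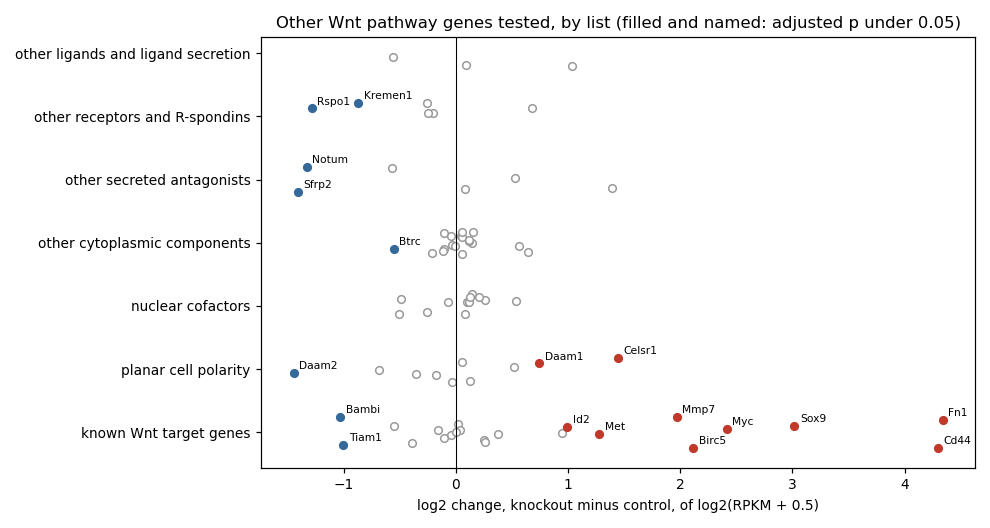
Log2 change (knockout minus control, log2(RPKM + 0.5) scale) of the 77 tested genes of 7 other Wnt pathway lists, 1 point a gene, with filled and named points for adjusted p under 0.05. Named points to the right are mostly in the target list, and the receptor, antagonist and cytoplasmic lists have named points only on the left.

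Of 22 tested genes listed as Wnt targets in other tissues, 8 were higher and 2 lower in knockouts, with a median log2 change of 0.25, where 9.98% of all genes were higher and 3.48% lower. Birc5, Sox9 and Mmp7 averaged under 0.5 RPKM in controls and were tested only because knockouts were higher. The list was also chosen with earlier results of these data known, and for both reasons this count is a description. The higher genes were Cd44, Fn1, Birc5, Myc, Sox9, Met, Id2 and Mmp7, and the lower genes were Bambi, a decoy receptor for TGF-β-family signals, and Tiam1, an activator of Rac. Many of these genes have other regulators as well. Cd44 is also among the parietal markers, which were higher as a sum, and Birc5 is a gene of dividing cells. Birc5 averaged 3.48 ± 1.07 RPKM in knockouts and 0.397 ± 0.0991 RPKM in controls (log2 change 2.11, SE 0.25, adjusted p = 0.00369). The 6 cell cycle markers summed to 29.9 to 57.8 RPKM in knockouts, against 4.84 to 5.60 RPKM in controls, and all 6 were higher. Cd44, a hyaluronan receptor, had a log2 change of 4.29 (adjusted p = 0.00206) and Fn1, the matrix protein fibronectin, of 4.34 (adjusted p = 0.00206). Sp5, Ccnd1 and 10 others were not called, with log2 changes of 0.020 for Sp5 and 0.25 for Ccnd1, which were picked after their values were seen. The part of cell division and of parietal and leukocyte RNA in the target list was not tested.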

How the data were processed

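The deposited table holds RPKM values for 24062 rows and 6 libraries. Per the submitters' processing notes the authors used FastQC, STAR, featureCounts and edgeR with the mm10 genome. Versions and the use of strand in counting were not given in the sources used here. Reads of antisense partners therefore cannot be told apart, and exons of 10 members overlap a gene on the other strand (Wnt5a, Wnt7b, Wnt11, Fzd5, Fzd6, Ctnnb1, Axin2, Lef1, Tcf7l1 and Rspo3).

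The 27 rows with a calendar date for a symbol (0.233% to 0.269% of reads) were left out, and 4567 named genes were at 0 in every library. Reads recovered from the deposited RPKM ratios were whole within 0.001 read for 100% of rows. Genes averaging 0.5 RPKM or more were fitted as log2(RPKM + 0.5) with limma 3.58.1 in R 4.3.3 (mean-variance trend, knockout minus control, no covariate, two-sided, Benjamini-Hochberg over 13912 genes), after tests on simulated data. A log2 change on this scale understates that of low genes. Folds are ratios of group means. The labels do not state that libraries came from separate animals, so p-values cover only the spread between libraries, which may be technical. Depth limits genes of few reads.

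Members and lists were chosen with earlier results of these data known. Named genes are Klf4, every member, the 3 genes with the smallest p in each further list, and markers by sum. Outside that rule, Myc, Sox9, Met, Id2, Mmp7, Bambi, Tiam1, Sp5, Ccnd1, Sostdc1, Umod, Ren1, Cd3e and Cd79a were named after their values were seen. So were Pdgfra, Plvap and Cd24a, and Adgre1 was named for its missing row. Replicate numbers did not pair libraries (correlations of deviations 0.17, −0.22 and −0.46). Gene positions are from the GENCODE annotation of GRCm38. Alternatives were other pseudocounts, filters, scalings and fits, and leaving out each library.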

Additional observations from a re-analysis of the deposited data

How the results depend on the processing

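Counts of called members depended on the setting. Against 9 members (8 higher, 1 lower), 5 were called with no filter (4 higher), 4 with a filter at 2 RPKM (3 higher), 4 under quantile normalization (2 higher, 2 lower) and 5 were higher under median-ratio scaling. The fits without the variance trend and with voom on recovered reads each called 2 lower. The replicate block left 2 members, 2 higher and 0 lower, Wnt4 (adjusted p = 0.0403) and Wnt5a (0.0460). Among genes named from the further lists by smallest p, these lost their calls there: Celsr1 (0.0508), Daam1 (0.0576), Sfrp2 (0.060), Rspo1 (0.0860), Kremen1 (0.100) and Btrc (0.1085). Notum, Daam2, Cd44, Fn1 and Birc5 kept theirs. Leaving out 1 library gave 3 to 7 members, 2 to 6 of them higher and 0 to 1 lower. Over all genes, 1873 calls became 1191 (841 higher) with the filter at 2 RPKM and 811 (632 higher, 179 lower) with the replicate block. Quantile normalization gave 849 higher and 798 lower, median-ratio scaling 744 lower, and voom on recovered reads 1792 calls. Leaving out 1 library gave 598 to 2114 calls, 474 to 1497 higher and 124 to 617 lower.

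Signs near 0 turned. Klf4 was at −0.0098 under quantile normalization and −0.11 under median-ratio scaling, and ran from −0.35 to 0.24 with 1 library left out. Under quantile normalization Wnt5b was at −0.30, Fzd8 at −0.060 and Rspo3 at −0.31. Under median-ratio scaling Wnt5b was at −0.084, Ctnnb1 at −0.030, Rspo3 at −0.0023, Lgr4 at −0.075 and Wls at −0.040. With 1 library left out the log2 change ran from −0.074 to 0.17 for Wnt5b, −0.16 to 0.068 for Wnt11, −0.19 to 0.093 for Lrp5, −0.16 to 0.018 for Lrp6, −0.33 to 0.034 for Ror2, −0.00037 to 0.15 for Ctnnb1, −0.29 to 0.072 for Tcf7, −0.23 to 0.23 for Rspo3 and −0.030 to 0.19 for Lgr4. The causes were not tested. Among single genes other than Klf4, 738 values kept direction and side of the threshold, 83 lost the call, 12 gained it and 23 changed sign. The 738 include values of genes not called, which had no call to lose. Among called members, the alternatives that ended the call ran from 0 of 14 for Wnt4 and Wnt5a to 11 of 15 for Fzd7. Leaving a library out leaves 2 in a group.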

Other observations

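Wnt6 and Wnt10a are neighbours on chromosome 1, Wnt6 at 74771892 to 74785322 and Wnt10a at 74791516 to 74804179, both on the plus strand. Wnt10a had 263 reads in knockouts and 19 in controls, while Wnt6 had 41 reads in knockouts and 22 in controls. Sostdc1, a secreted inhibitor that binds Lrp6, ran in the same library order as the sum of the distal tubule and collecting duct markers and as Umod, a gene of the thick ascending limb. It stood at 42.4, 43.4 and 13.6 RPKM in knockouts, against 11.9, 5.21 and 20.3 RPKM in controls (log2 change 1.39, limma adjusted p = 0.148). Daam2 and Lef1 shared one library order with the endothelial marker sum. The podocyte marker sum differed from that order only among controls, and the part of either sum was not tested. These items were picked after their values were seen.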
